A study of Arvicanthis niloticus with 28 samples.

Results

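Notch signalling was described in the retinal vessels of Nile rats through 10 genes that make its ligands, receptors, nuclear mediator and targets. The 10 genes were the ligands Dll4, Jag1 and Jag2, the receptors Notch1, Notch3 and Notch4, the DNA-binding protein Rbpj, and the target genes Hes1, Hey1 and Heyl. They were chosen by name, and each had to be present in both the TPM table and the expected count table. All 10 were present, among 18970 genes in the tables.

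A Notch receptor is switched on by a ligand on a neighbouring cell, after which proteases release its intracellular part, which joins Rbpj in the nucleus and turns on target genes such as those of the Hes and Hey families. In vessels, Dll4, Notch1 and Notch4 are known chiefly from endothelial cells, where Dll4 limits sprouting and marks arteries. Notch3 is known from the mural cells that wrap the endothelium, namely pericytes and smooth muscle cells, and needs Jag1 on neighbouring cells.

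The study used the Nile rat (Arvicanthis niloticus), a diurnal rodent that is prone to diabetes on energy-rich diets, and sequenced RNA of the whole retinal vasculature from 28 rats, 1 library per rat. Acellular capillaries are empty basement membrane tubes left where the cells of a capillary have died, and their density in each rat's retina defined the groups. The pre-dropout group held 4 rats with 17.1 to 17.9 acellular capillaries per square mm, and the normal group held 24 rats with 5.9 to 14.5 per square mm. Both groups were wild type (WT) and labelled as untreated, and the labels give no age. The study's methods state that rats were fed either a high-fiber or a high-caloric diet, and the labels do not say which rat received which. All 4 pre-dropout rats were male, whereas 8 normal rats were male and 16 were female. Random blood glucose was 57.4, 443, 278 and 117 mg/dL in pre-dropout rats 1 to 4, against a range of 52 to 422 mg/dL with a median of 67.3 mg/dL in normal rats. Glucose was above 200 mg/dL in 5 rats, of which 2 were pre-dropout and 3 were normal. Because pre-dropout rats were all male, differences of group and sex are separated only within males or with sex as a covariate. The covariate takes the sex difference from normal rats.

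Total counts per library ranged over 153116 to 10029213, and 7503 to 16139 genes had a count. A value of 3 counts corresponded to 0.302 to 15.3 CPM (counts per 1000000 counts of the library, after TMM scaling between libraries), depending on the library. In 8 normal libraries (rats 8, 13, 17, 18, 19, 20, 23 and 24), 1.27 to 7.45% of 3317 abundant genes had 0 to 2 counts, against 0 to 0.693% in the other 20 libraries. Every member value of 0 to 2 counts came from these 8 libraries, so many of the results that rest on them are given with and without them. The endothelial markers Pecam1 and Cdh5 averaged 568.4 and 716 TPM over 28 rats, the pericyte markers Pdgfrb and Rgs5 averaged 110 and 7037 TPM, and the smooth muscle marker Acta2 averaged 404.1 TPM. The rod marker Sag averaged 134 TPM with a range of 3.36 to 880 TPM, so a photoreceptor transcript was present in the vessel preparations in varying amounts. In such bulk samples, fewer cells of a type and less RNA per cell cannot be told apart.

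All 10 members were detected, and on the TPM scale the target Hey1 and the mural receptor Notch3 stood highest. Levels of different genes were compared as TPM, which is scaled for transcript length. Hey1, a transcriptional repressor induced by Notch, averaged 143 TPM (SD 66.5, n = 28), and Notch3 averaged 107 TPM (SD 54.2). Hey1 was the highest member in 20 rats, Notch3 in 7 and Hes1 in 1. The next 7 members lay close together at mean TPM of 46.3 for Hes1, 39.4 for Heyl, 38.8 for Dll4, 34.4 for Rbpj, 32.2 for Jag1, 30.2 for Notch4 and 27.5 for Jag2. Notch1 was the lowest at 9.26 TPM (SD 4.29), and stood at rank 9256 of 18970 genes by mean TPM, whereas Hey1 stood at rank 1044.

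**Figure D1:**
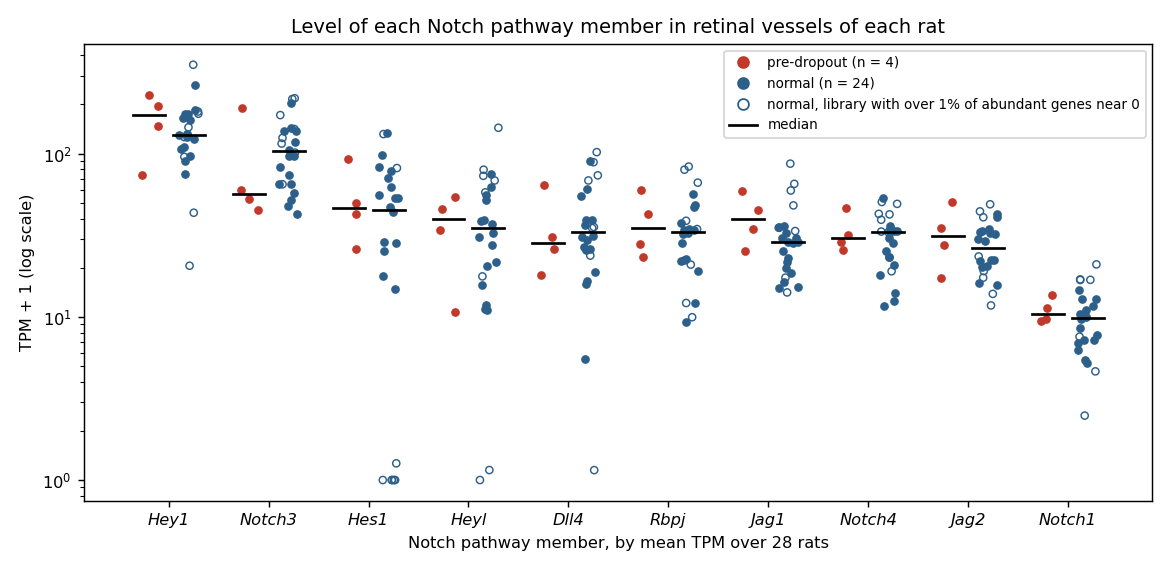
TPM + 1 on a log axis for each of the 10 Notch pathway members in each of 28 rats, with pre-dropout rats (n = 4, red) left of normal rats (n = 24, blue) and a black line at each group's median. Open circles are the 8 normal libraries with over 1% of abundant genes at 0 to 2 counts. The points of the 2 groups overlap for every member, and the lowest Hes1, Heyl and Dll4 points are open circles.

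Of the 9 pairs of neighbours in this order, 2 differed within rats (sign-flip permutation test, two-sided, adjusted over the 9 pairs). Notch3 exceeded Hes1 by 2.11 on the log2(TPM + 1) scale, in 22 of 28 rats (adjusted p = 0.00018), and by 0.82 in 14 of 20 rats without the 8 libraries (adjusted p = 0.0138), 6 of which had Hes1 at 0 to 2 counts. Jag2 exceeded Notch1 by 1.499, in 26 of 28 rats (adjusted p = 9e-05, which is the smallest this test can give). Hey1 exceeded Notch3 in 21 of 28 rats by 0.41 (adjusted p = 0.132). From Hes1 down to Jag2, no neighbours differed beyond their spread. Without the 8 libraries, an alternative chosen after seeing the data, 4 pairs differed, the added ones being Hey1 over Notch3 by 0.71 (adjusted p = 0.0045) and Hes1 over Heyl by 0.71 (adjusted p = 0.0452, n = 20 rats).

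The order also rests on the lengths the pipeline assigned to the transcripts. The ratio of counts to TPM gave Notch1 a length 3.1 times that of Notch3, and Jag2 a length 3.05 times that of Jag1. It gave Hey1 a length 0.11 times that of Notch3. On the CPM scale, which is not per length, Notch3 came first with a mean of 444.8 CPM, followed by Jag2 with 186, Notch4 with 135 and Notch1 with 119 CPM, while Hey1 came 7th of the 10 with 62.4 CPM. Notch1, the lowest by TPM, thus stood 4th by CPM, and Hes1 was last with 16.9 CPM. Whether the assigned lengths match the true transcripts was not tested, so the TPM order holds only under these lengths. These lengths were nearly constant over libraries, so they do not touch comparisons of 1 gene between rats.

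Among the ligands, Jag2 varied least and Dll4 most. Dll4 ranged over 0.150 to 101 TPM with a median of 29.9 TPM (CV 0.666, n = 28), and its lowest value rested on 2 counts in normal rat 17. Jag1 ranged over 13.1 to 85.8 TPM with a median of 28.5 TPM (CV 0.536). Jag2, a second Jagged ligand, ranged over 10.7 to 49.3 TPM with a median of 27.4 TPM (CV 0.399). For scale, the median CV of the 10963 tested genes with a mean of at least 5 TPM was 0.764, and these ligands lay below it. Genes matched to the ligands for level were not compared.

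Over 28 rats, Notch4 varied about as little as Jag2, while Notch1 and Notch3 varied more. Notch4, an endothelial receptor, had a CV of 0.375 over 10.6 to 52.6 TPM, the lowest of the 10 members in all 28 rats. In the 20 rats without the 8 libraries its CV was 0.388, above those of Notch1 (0.32), Jag2 (0.338) and Hey1 (0.345). Notch1, which carries most Notch signalling in sprouting endothelium, had a CV of 0.463 over 1.48 to 19.95 TPM. Notch3 had a CV of 0.505 over 41.6 to 217 TPM, and 0.518 without the 8 libraries. Rbpj, the DNA-binding partner of every Notch receptor, had a CV of 0.568 over 8.28 to 82.3 TPM.

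Of the targets, Hes1 and Heyl had the highest CVs of the 10 members over 28 rats. Hey1 had a CV of 0.466 over 19.6 to 349 TPM. Hes1, a repressor that Notch induces in many cell types, was at 0 counts in 5 libraries and at 0 to 2 counts in 6, all of them among the 8 libraries named above, and its highest value was 132 TPM. Heyl, a mural cell target of Notch3, was at 0 counts in normal rat 24 and at 1 count in normal rat 17, and reached 143 TPM in normal rat 19. In the other 20 libraries Hes1 ranged over 13.8 to 132 TPM (CV 0.56, against 0.83 in all 28) and Heyl over 9.72 to 74.1 TPM (CV 0.563, against 0.78). Dll4 then had the highest CV of the members, 0.593. A 0 in these libraries therefore stood beside near-zero values of abundant genes, and whether Hes1 was off in those vessels was not tested.

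Which cells of the vessel wall a receptor went with was asked through marker lists. Each list's level was the mean log2(CPM + 1) of its genes in a rat, and 95 relations were tested, 45 between members and 50 between members and 5 lists (permutation tests with 100000 resamples, two-sided, adjusted over the 95). The points share a library's depth and scaling. Of the 95 relations, 3 passed by both Pearson's r and Spearman's rho, and all 3 linked a receptor to markers of vessel wall cells.

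Notch3 rose with the 9 pericyte markers. Pearson's r was 0.80 and Spearman's rho 0.86 over 28 rats (permutation, adjusted p = 0.00095 for each, the smallest these permutations can give). The relation was r = 0.84 without the 2 rats farthest from the median marker level, 0.78 within the 12 males and 0.82 within the 16 females, and 0.83 without the 8 libraries. In pre-dropout rats 1 to 4 Notch3 stood at 657, 194, 212 and 288 CPM beside pericyte marker levels of 7.41, 6.09, 5.79 and 6.12. The 1 pre-dropout rat with high Notch3 was thus also the 1 with high pericyte markers. In normal rats the highest Notch3 value was 1069 CPM (rat 1, pericyte level 7.07) and the lowest 163 CPM (rat 4, pericyte level 5.47).

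**Figure D2:**
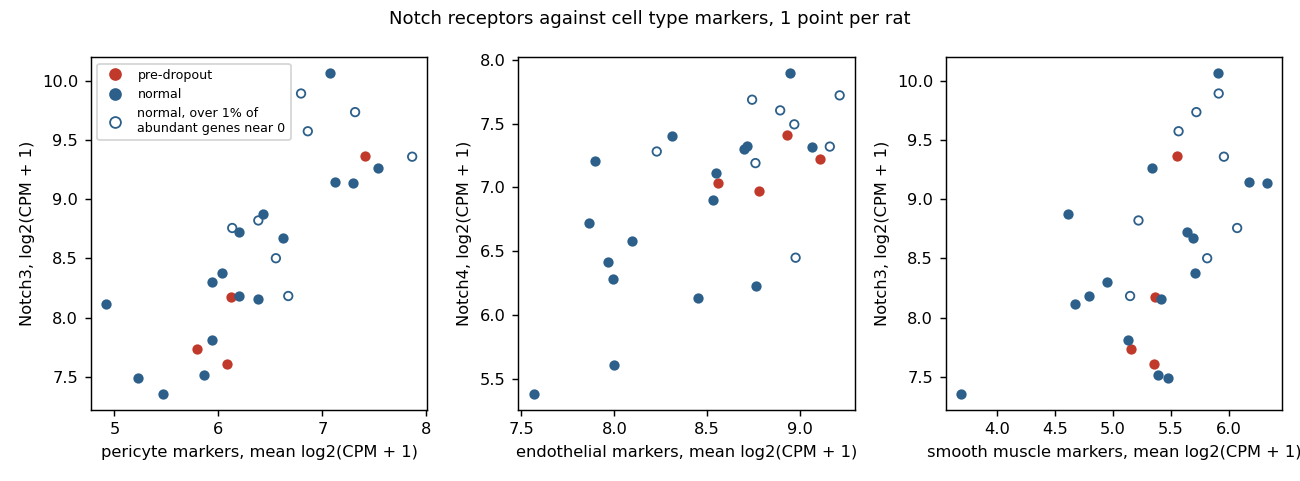
Notch3 against the pericyte markers (left), Notch4 against the endothelial markers (middle) and Notch3 against the smooth muscle markers (right), all as log2(CPM + 1), 1 point per rat, pre-dropout red and normal blue, with open circles for the 8 libraries with over 1% of abundant genes near 0. The left panel is the tightest, at r = 0.80, against 0.65 in the middle and 0.57 on the right.

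Notch3 also rose with the 8 smooth muscle markers, at r = 0.57 (adjusted p = 0.0345) and rho = 0.59 (adjusted p = 0.0316; permutation tests). It was r = 0.49 without the 2 farthest rats, 0.67 within males and 0.58 within females. It was r = 0.54 without the 8 libraries and no longer passed (adjusted p = 0.0941). Notch4 rose with the 10 endothelial markers, at r = 0.65 (adjusted p = 0.0095) and rho = 0.60 (adjusted p = 0.0316; permutation tests). It was r = 0.56 without the 2 farthest rats, 0.61 within males, 0.66 within females and 0.66 without the 8 libraries. Notch3 against the endothelial markers gave r = 0.34 (adjusted p = 0.32), while Notch4 against the pericyte markers gave r = 0.49 (adjusted p = 0.11) and passed by rho alone, at 0.56 (adjusted p = 0.0375; permutation tests). Whether Notch3 and Notch4 differed in their relation to a given list was not tested. Both receptors also fell with the neural and glial markers by rho alone, Notch3 at r = -0.54 (adjusted p = 0.0688) and rho = -0.54 (adjusted p = 0.0444), and Notch4 at r = -0.53 (adjusted p = 0.0688) and rho = -0.56 (adjusted p = 0.0375; permutation tests). The part of the neural and glial content in the relations of the receptors with vessel wall markers was not tested.

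No pair of members passed both tests among the 45. By Spearman alone 1 pair passed, Notch4 with Heyl at rho = 0.59 (permutation, adjusted p = 0.0316). The median rho of the 45 pairs was 0.19, and 35 of them were above 0. Pairs of other genes were not compared. The next highest pairs were Notch1 with Hey1 (rho = 0.50), Dll4 with Notch4 (rho = 0.44) and Rbpj with Hey1 (rho = 0.43). The lowest was Jag2 with Rbpj (rho = -0.28), which was 0.02 without the 8 libraries. Without them Notch4 with Heyl had rho = 0.68, Notch1 with Hey1 0.49, Dll4 with Notch4 0.27 and Rbpj with Hey1 0.48.

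Without the 8 libraries, 8 relations passed both tests over the 20 rats, 2 of them Notch3 with the pericyte and Notch4 with the endothelial markers as above. Endothelial markers then went with Jag2 (r = 0.71, adjusted p = 0.0097) and Notch1 (r = 0.67, adjusted p = 0.018) by permutation tests, and Jag2 went with Notch1 (r = 0.62, adjusted p = 0.0366). Over all 28 rats the same relations were weaker, at r = 0.36 for Jag2 and 0.23 for Notch1 with the endothelial markers. Heyl went with the smooth muscle markers (r = 0.70, adjusted p = 0.0097) and the pericyte markers (r = 0.62, adjusted p = 0.0366) in the 20 rats, against r = 0.19 and 0.15 in all 28. Hey1 fell with the neural and glial markers (r = -0.69, adjusted p = 0.0171), against r = -0.31 in all 28. This setting was chosen after seeing the data, and it removes the libraries in which Heyl was at 0 to 2 counts.

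**Figure D3:**
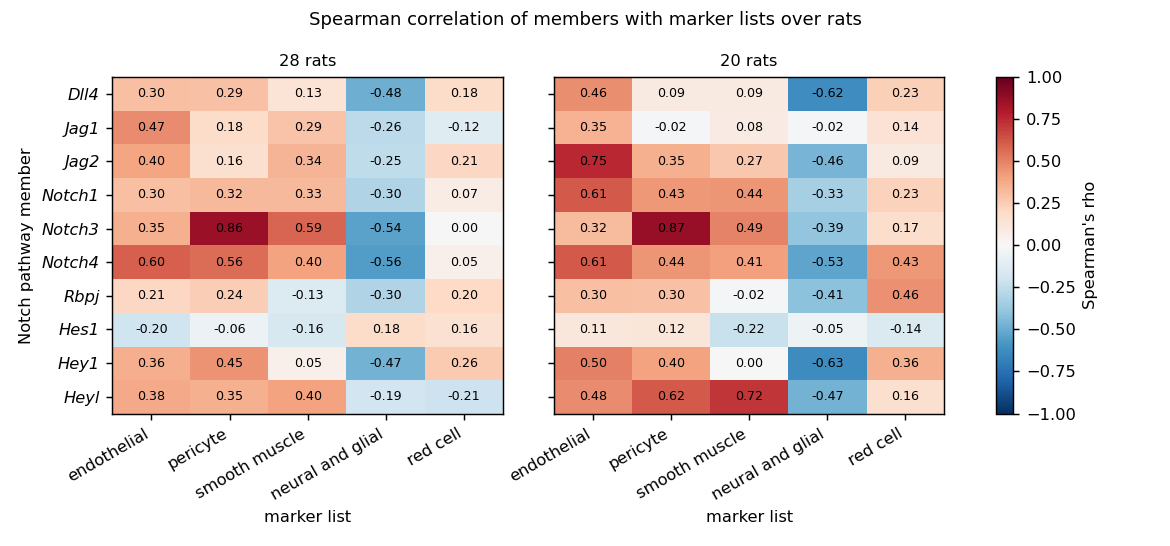
Spearman's rho of each Notch pathway member (rows) with 5 marker lists (columns), over 28 rats (left) and over the 20 rats without the 8 libraries with abundant genes near 0 (right), coloured red above 0 and blue below 0. Notch3 with pericyte markers is the strongest cell in both, at 0.86 and 0.87, and Heyl with smooth muscle markers is 0.40 on the left and 0.72 on the right.

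The genes whose levels over the 28 rats were most like each member were listed as a description, by Spearman's rho among 7860 genes. For Notch3 these were Nid1 (rho = 0.89), which encodes the basement membrane protein nidogen, Abcc9 (0.85), a potassium channel subunit of pericytes, and Pdgfrb (0.78), the receptor that recruits pericytes. Abcc9 and Pdgfrb belong to the pericyte list. For Notch4 they were Hist1h1c (0.79), a linker histone, Ptp4a2 (0.75), a phosphatase, and Sparc (0.75), a secreted matrix-binding protein. For Notch1 they were Entpd1 (0.72), an ectonucleotidase of endothelial and immune cells, Akr1c14 (0.69) and Gata2 (0.67), a transcription factor of endothelial and blood cells.

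For Hey1 the nearest genes were Pnrc1 (0.81), Fam107b (0.76) and Ydjc (0.73), and for Heyl they were Eif6 (0.78), Hspa2 (0.74) and Arpc4 (0.71). For Hes1 they were St3gal5 (0.70), Slc52a2 (0.69) and Rgs10 (0.68), and for Rbpj they were Mtmr6 (0.72), Specc1l (0.70) and Rnf11 (0.70). Without the 8 libraries rho was 0.39, 0.63 and 0.51 for the 3 genes of Hes1, in that order. For those of Heyl it was 0.74, 0.82 and 0.50. Among ligands, Jag1 was nearest to Marveld2 (0.77), Mdfic (0.66) and Grasp (0.63), Jag2 to Tbkbp1 (0.70), Cdc42bpb (0.69) and Itga5 (0.68), the fibronectin receptor subunit, and Dll4 to Sertad1 (0.71), Slc25a24 (0.68) and Acer2 (0.63). At least 335 genes had a rho above 0.5 with each of Notch4, Notch3 and Hey1, against 62 to 128 with each of the other 7 members.

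The RNA comparison of the study asked which genes differ in the pre-dropout state, just below the density at which capillary loss is called. The study used another test, EBSeq, on counts mapped to the Nile rat genome, and reported genes higher in that state. Here edgeR was run on the deposited counts, so the counts of genes called are not a rerun of the study's test. None of the 10 members met the criteria used here. In the quasi-likelihood test of edgeR, 0 of 10 passed after adjustment over all genes (Benjamini-Hochberg, with a fold change over 2). An unadjusted p under 0.05 was found for 0 of 10. The background was 0 of 13800 tested genes (0%), with 394 genes (2.86%) at an unadjusted p under 0.05, so the members' count equals the background. No member passed with DESeq2 or limma-voom either, which called 5 and 4 genes of the whole table. The log2 fold changes of 7 members were above 0 and those of 3 below 0 with a median of 0.17, against 41.1% above 0 and a median of -0.13 over all tested genes. Within males, where group is not mixed with sex, 5 of the 10 were above 0, beside 46.9% of all genes.

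Jag1 had the most even placement among the ligands. It stood at 110, 106, 74.8 and 64.9 CPM in pre-dropout rats 1 to 4, against a lowest value of 29.8, a median of 57.8 and a highest of 168 CPM in normal rats. All 4 pre-dropout values lay above the normal median, yet 3 normal rats were higher than every pre-dropout rat. Those 3 were among the 8 libraries, and in the other 16 normal rats the highest Jag1 value was 72.6 CPM, below 3 of the 4 pre-dropout rats. The log2 fold change was 0.40 (SE 0.41, 95% interval -0.43 to 1.22; edgeR adjusted p = 1). It was 0.79 (SE 0.27) without the 8 libraries, still short of the threshold (edgeR adjusted p = 0.787).

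Jag2 stood at 197, 363, 182 and 131 CPM in pre-dropout rats 1 to 4, against 70.3, 176 and 338 CPM as the lowest, median and highest of normal rats. Pre-dropout rat 2 had the highest Jag2 value of all 28 rats, while the other 3 lay inside the normal range. The log2 fold change of 0.27 (SE 0.32, 95% interval -0.38 to 0.92) was -0.08 without that rat. Dll4 stood at 97.8, 49.9, 54.6 and 37.2 CPM in pre-dropout rats 1 to 4, against 0.299, 57.2 and 195 CPM in normal rats. It was above the normal median in 1 of 4 pre-dropout rats, with a log2 fold change of -0.31 (SE 0.63, 95% interval -1.59 to 0.98), which was -0.01 without the 8 libraries.

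Notch3 had the most negative estimate of the members. Its values of 657, 194, 212 and 288 CPM in pre-dropout rats 1 to 4 stood against a lowest value of 163, a mean of 463 and a highest of 1069 CPM in normal rats. Pre-dropout rat 1 was high and the other 3 were below the normal median, but 3 normal rats were lower than any of them. The log2 fold change was -0.45 (SE 0.40, 95% interval -1.27 to 0.36; edgeR adjusted p = 1). It was -0.98 without pre-dropout rat 1, -0.73 within males and -0.17 with the pericyte-minus-endothelial marker level as a covariate. The pericyte marker level averaged 6.35 ± 0.72 in pre-dropout rats and 6.45 ± 0.72 in normal rats (SD, n = 4 and 24; exact permutation test, adjusted p = 0.918), a difference smaller than the spread in either group. Against the 8 normal males, at 6.78 ± 0.69, the pericyte level was 0.43 lower in pre-dropout rats (exact permutation test, adjusted p = 0.572).

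Notch1 and Notch4 had small estimates. Notch1 stood at 110, 171, 106 and 131 CPM in pre-dropout rats 1 to 4, against 18.1, 112 and 282 CPM in normal rats. Notch4 stood at 169, 148, 124 and 130 CPM in pre-dropout rats 1 to 4, against 40.7, 146 and 237 CPM in normal rats. Each had 2 of 4 pre-dropout rats above the normal median (4 of 4 without the 8 libraries), with log2 fold changes of 0.14 (SE 0.41) for Notch1 and 0.10 (SE 0.35) for Notch4. Both estimates turned below 0 within males, to -0.21 for Notch1 and -0.15 for Notch4. Endothelial markers averaged 8.84 ± 0.23 in pre-dropout rats and 8.51 ± 0.47 in normal rats (SD, n = 4 and 24; exact permutation test, adjusted p = 0.756). The difference of 0.33 was 0.51 without the 8 libraries (exact permutation test, adjusted p = 0.165). It was 0.18 against the 8 normal males (exact permutation test, adjusted p = 0.682).

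**Figure D4:**
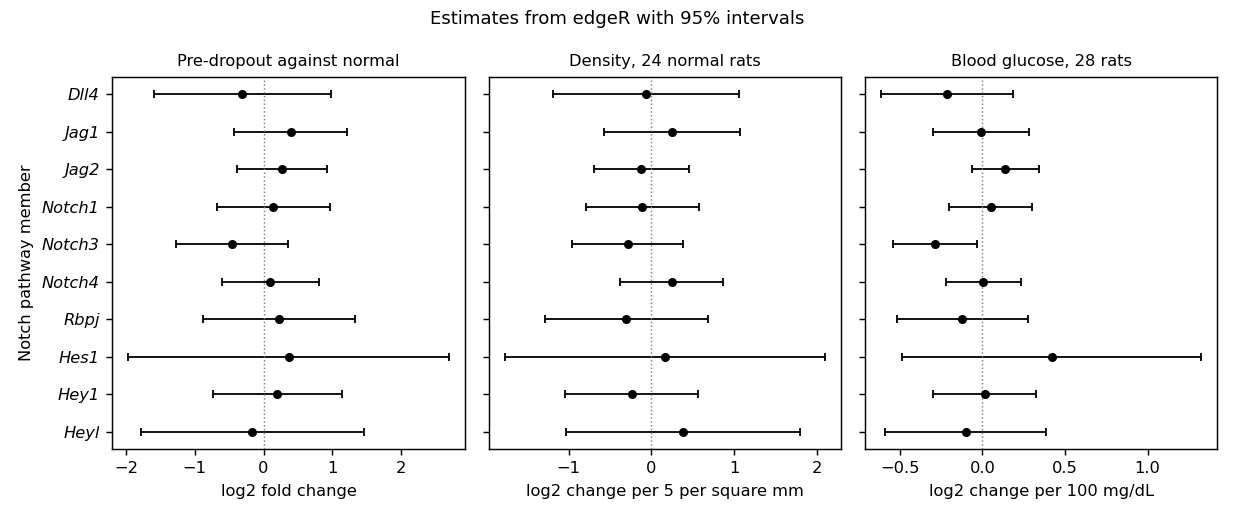
Estimates with 95% intervals from edgeR for the 10 Notch pathway members: log2 fold change of pre-dropout against normal rats (left), log2 change per 5 acellular capillaries per square mm in 24 normal rats (middle) and log2 change per 100 mg/dL of blood glucose in 28 rats (right). Every interval includes 0 except that of Notch3 against glucose, from -0.54 to -0.03, and the Hes1 and Heyl intervals are wide in each panel.

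Rbpj stood at 27.9, 55.2, 27.4 and 85.7 CPM in pre-dropout rats 1 to 4, against 9.48, 37.2 and 113 CPM in normal rats, a log2 fold change of 0.22 (SE 0.55). Hey1 stood at 81.9, 68.4, 31.3 and 99.6 CPM in pre-dropout rats 1 to 4, against 7.14, 53.9 and 143 CPM in normal rats, a log2 fold change of 0.20 (SE 0.46). For both, pre-dropout rats lay on either side of the normal median, and the ranges overlapped. Hes1 stood at 7.85, 19.4, 15.5 and 40.7 CPM in pre-dropout rats, against 0, 16.04 and 44.98 CPM in normal rats. Its log2 fold change was 0.36 (SE 1.15). This estimate includes the 8 libraries, 6 of which had Hes1 at 0 to 2 counts. Without the 8 libraries the normal median of Hes1 was 19.86 CPM (n = 16). Above it lay 1 of 4 pre-dropout rats, against 2 of 4 above the median of all normal rats.

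Heyl stood at 40.9, 32.8, 8.94 and 48.9 CPM in pre-dropout rats, against 0, 30.8 and 145 CPM in normal rats. The lowest Heyl value among pre-dropout rats was that of rat 3, and the other 3 were above the normal median. Its log2 fold change of -0.16 (SE 0.80) was 0.14 without the 8 libraries, so no direction can be given for Heyl. For Hes1 and Heyl the 95% intervals ran from -1.97 to 2.70 and from -1.78 to 1.46, which leaves room for changes of more than 2-fold in either direction.

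No other gene of the pathway passed either. Of 50 further genes of the pathway in the tables (other receptors and ligands, targets, proteases, glycosyltransferases, trafficking factors and nuclear cofactors), 46 were tested and 0 were called higher or lower in pre-dropout rats. Their log2 fold changes were above 0 for 24 and below 0 for 22, with a median of 0.06. The 2 with the smallest p were Neurl1b, a ubiquitin ligase that acts on Notch ligands, at -6.64 (SE 2.85, unadjusted edgeR p = 0.0252, adjusted p = 1), which had counts in only 10 of 28 rats, and Dtx3l at 1.18 (SE 0.72, unadjusted edgeR p = 0.108). The highest of the 50 by mean TPM were Adam10, a protease that cuts the bound receptor, at 698 TPM, Nrarp, a Notch-induced feedback inhibitor, at 296 TPM, Dner, a neuronal Notch ligand, at 214 TPM, the gamma-secretase subunit Aph1a at 94.7 TPM and the nuclear cofactor Snw1 at 83.9 TPM. Adam10 and Nrarp were thus both above every member on the TPM scale.

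Within the 24 normal rats, density spanned 5.9 to 14.5 acellular capillaries per square mm, and no member passed the test against it. In a fit that also held sex, 0 of 10 members were called by edgeR, beside 0 of 13677 tested genes (0%), and 0 members had an unadjusted p under 0.05, beside 1.12% of all genes. DESeq2 called 18 genes and none of the members. Slopes per 5 per square mm were above 0 for 4 members (beside 56.3% of all genes) and below 0 for 6, from -0.30 for Rbpj (SE 0.49) and -0.29 for Notch3 (SE 0.33) to 0.25 for Notch4 (SE 0.31) and 0.38 for Heyl (SE 0.70). Heyl's slope was 0.02 without the 8 libraries. Of the 47 other Notch genes tested here 0 were called, and the smallest p belonged to the glycosyltransferase Mfng (-0.71, SE 0.45, unadjusted edgeR p = 0.122) and the ubiquitin ligase Itch (-0.77, SE 0.49, unadjusted edgeR p = 0.123).

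Blood glucose gave the only member with an unadjusted p under 0.05. In a fit over 28 rats that also held sex, 0 of 10 members were called by edgeR, beside 0 of 13800 tested genes (0%), and 1 member, Notch3, had an unadjusted p under 0.05, beside 3.8% of all genes. DESeq2 called 56 genes and none of the members. In the 5 rats above 200 mg/dL Notch3 stood at 194 and 212 CPM (pre-dropout rats 2 and 3) and at 223, 285 and 422 CPM (normal rats 2, 3 and 22), against 163 to 1069 CPM with a median of 432 CPM in the other 23. All 5 thus lay below that median, and none lay below the lowest of the 23. Mean levels were 267 ± 93.2 CPM and 483 ± 251 CPM (SD, n = 5 above 200 mg/dL and n = 23 at or below it).

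The slope of Notch3 was -0.28 per 100 mg/dL on the log2 scale (SE 0.13, 95% interval -0.54 to -0.03, unadjusted edgeR p = 0.0283, adjusted p = 1), so it did not pass over all genes. As a factor, glucose above 200 mg/dL gave -1.0 (SE 0.37, edgeR adjusted p = 0.341). The slope was -0.26 without the 8 libraries and -0.20 within the 24 normal rats. With the pericyte-minus-endothelial marker level as a covariate it was -0.08 (SE 0.12). The slopes of the pericyte genes Pdgfrb and Rgs5 were -0.23 (SE 0.13) and -0.19 (SE 0.12) per 100 mg/dL, so all 3 estimates were below 0. The pericyte list as a whole had r = -0.20 and rho = -0.27 with glucose over 28 rats (permutation, adjusted p = 0.638 and 0.593, over 8 lists). The part of the pericyte content in the Notch3 slope was not tested beyond this covariate.

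**Figure D5:**
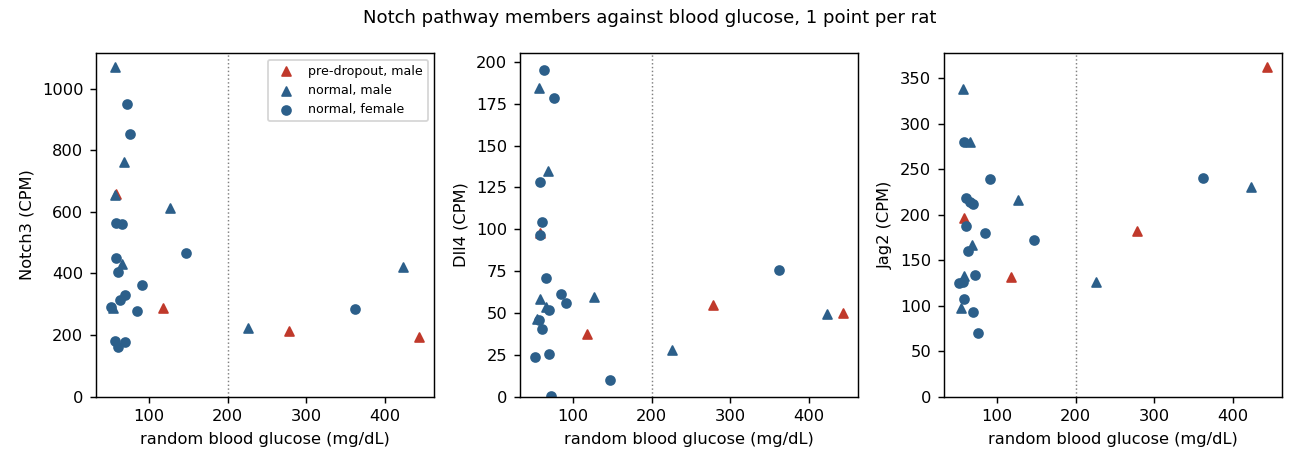
Notch3 (left), Dll4 (middle) and Jag2 (right) in CPM against blood glucose in units of mg/dL, with each rat a point, pre-dropout red and normal blue, triangles for males and circles for females, with a dotted line at 200 mg/dL. To the right of that line Notch3 lies between 194 and 422 CPM and Dll4 between 27.7 and 75.4 CPM, while the highest Jag2 value, 363 CPM, belongs to the rat with the highest glucose.

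Slopes were above 0 for 5 of the 10 members, beside 52.4% of all genes, and the intervals of the other 9 included 0. Among the ligands the slope was 0.14 for Jag2 (SE 0.10), -0.01 for Jag1 (SE 0.14) and -0.21 for Dll4 (SE 0.20) per 100 mg/dL. Dll4 stood at 27.7 to 75.4 CPM in the 5 rats above 200 mg/dL, against 0.299 to 195 CPM in the other 23, so no rat above 200 mg/dL was among the highest for Dll4, while the ranges overlapped. Notch1 had a slope of 0.05 (SE 0.12) and Rbpj one of -0.12 (SE 0.20). Hes1 had the steepest estimate, 0.42 (SE 0.45), but it was 0.08 without the 8 libraries, all of which came from rats at or below 200 mg/dL. Among the 46 other Notch genes tested, 0 were called, and 2 had an unadjusted p under 0.05. These were the gamma-secretase subunits Ncstn (1.28, SE 0.41, unadjusted edgeR p = 0.00309, adjusted p = 0.853) and Aph1b (1.16, SE 0.56, unadjusted edgeR p = 0.0451, adjusted p = 1), and Ncstn had counts in only 9 of 28 rats.

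Sex was examined within the normal rats because it was bound up with the groups. Of the 10 members 0 were called in 8 males against 16 females, beside 3 of 12162 tested genes (0.0247%), and 0 had an unadjusted p under 0.05, beside 4.38% of all genes. DESeq2 called 68 genes and limma-voom 725, none of them a member. Estimates were above 0 for 8 members, beside 47.7% of all genes. Notch1 had the lowest p and stood at 148 ± 71.4 CPM in males and 101 ± 50.1 CPM in females (SD, n = 8 and 16). Its log2 fold change was 0.62 (SE 0.34, unadjusted edgeR p = 0.0721, adjusted p = 0.995), but 0.04 without the 8 libraries. Notch3 was at 558 ± 276 CPM in males and 415 ± 227 CPM in females (SD, n = 8 and 16), a log2 fold change of 0.47 (SE 0.31), and 0.81 (SE 0.37, edgeR adjusted p = 0.684) without the 8 libraries. Of the 41 other Notch genes tested 0 were called, with the smallest p for the ubiquitin ligase Mib2 (-1.06, SE 0.53) and for Nrarp (0.90, SE 0.51).

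The glucose slopes of males and females were compared by an interaction term. It was called for 0 of 10 members, beside 1 of 15051 tested genes (0.00664%), with 0 members at an unadjusted p under 0.05 beside 12% of all genes. The term was above 0 for 2 members, beside 67.4% of all genes. For Notch3 the slope in males minus that in females was -0.19 (SE 0.28, edgeR adjusted p = 0.891). Of the 49 other Notch genes tested 0 were called. The smallest p belonged to Dlk2 (5.75, SE 1.68, edgeR adjusted p = 0.205) and Dtx1 (7.77, SE 3.11, edgeR adjusted p = 0.318). Dlk2 had counts in only 5 of 28 rats and Dtx1 in 18. Only 1 female was above 200 mg/dL, so the female slope rests largely on that rat.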

How the data were processed

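RNA of the whole retinal vasculature was sequenced from 28 rats. The authors deposited expected counts and TPM per gene under mouse gene symbols. The study's methods describe a comparative pipeline (CRSP), which uses transcript assembly and annotated mouse transcripts, and a later mapping to the Nile rat genome. The deposited tables were taken to be those of the comparative pipeline. Expected counts were rounded and scaled by TMM. TPM as deposited by the authors was used for levels between genes. Genes at low counts were removed (filterByExpr, minimum count 10).

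Each comparison was fitted over all tested genes with edgeR 4.0.16 (quasi-likelihood F test, Benjamini-Hochberg, adjusted p under 0.05 and, between groups, over 2-fold) in R 4.3.3. DESeq2 1.42.0, limma 3.58.1 (voom with sample weights, and log2(TPM + 1) or log2(TPM + 0.1)), other scaling, no filter, covariates, subsets of rats and leaving out each pre-dropout rat were tried. Permutations used SciPy 1.17.1 and NumPy 2.4.6. Scripts were tested on simulated data. Nothing in the labels says that libraries were repeated from 1 rat, and replicate numbers follow deposit order. Glucose units were taken from the study's methods.

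All 10 members were named in each result. Of 50 other Notch genes, the called ones or else the 2 with the smallest p, and the 5 with the highest mean TPM, were named, with the 3 nearest genes of each member (among genes with counts in at least 24 rats) and 6 markers. The members and lists were chosen with earlier results of these data known. Depth ranged over 153116 to 10029213 counts, and intervals cover the spread between rats.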

Additional observations from a re-analysis of the deposited data

Results flagged for a closer look

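Within the 4 pre-dropout rats and the 8 normal males, each member's CPM was examined for a rat standing far from the rest of its group, by the gap to its nearest neighbour over the group's range. Of 20 such tests 2 stood out, and chance gives about 1 in 20. Jag1 was 148 CPM in normal rat 18, against 31.7 to 71.2 CPM in the other 7 normal males (gap 0.661 of the range). Heyl was 145 CPM in normal rat 19, against 0 to 61.3 CPM in the other 7 (gap 0.576 of the range). Both libraries belong to the 8 with over 1% of abundant genes at 0 to 2 counts, and neither value lies in a pre-dropout rat.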

How the results depend on the processing

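In all 4 comparisons 0 members were called under every alternative run. Of 550 member estimates, 47 turned direction and 503 did not, and 18 of 40 estimates turned under no alternative. Values that round to 0 have no direction and were counted as not turned. The Notch4 slope on glucose, 0.0047, rounds to 0, so it could not turn and is among the 18. The cause of each change was not tested. No paired analysis was possible because the labels give no replicate numbers shared between the groups.

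Counts over all genes moved most. For pre-dropout against normal rats they were 72 without a filter, 5 with DESeq2 and 4 with limma-voom, against 0 with edgeR. For density they were 45 without a filter, 18 with DESeq2 and 1 with neural and glial marker level as a covariate, and for glucose 152 without a filter, 56 with DESeq2, 1 with the pericyte-minus-endothelial covariate and 2 in normal rats only. For sex they were 68 with DESeq2, 725 with limma-voom and 5 with limma at either TPM pseudocount, against 3. Neighbours that differed numbered 4 and relations 8 without the 8 libraries (chosen after seeing the data), against 2 and 3.

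For pre-dropout against normal rats, leaving out each pre-dropout rat gave ranges of -0.63 to -0.12 for Dll4, 0.30 to 0.55 for Jag1, -0.08 to 0.51 for Jag2, -0.02 to 0.26 for Notch1, -0.98 to -0.26 for Notch3, 0.04 to 0.19 for Notch4, -0.14 to 0.44 for Rbpj, -0.11 to 0.68 for Hes1, 0.01 to 0.46 for Hey1 and -0.39 to 0.16 for Heyl, with 0 members and 0 genes called each time and 5 to 8 members above 0. Dll4 turned to 0.39 with limma-voom, 0.04 with TPM + 1 and 0.13 with TPM + 0.1, and Heyl to 0.11, 0.22 and 0.44 under the same and 0.14 without the 8 libraries. With sex as a covariate Notch1 was -0.20 and Notch4 -0.14, and in males only -0.21 and -0.15.

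For density, Dll4 turned to 0.36 with TPM + 1, 0.53 with TPM + 0.1, 0.10 in libraries of at least 1000000 counts and 0.16 with the neural covariate. Jag2 turned to 0.02 and Notch1 to 0.21 with limma-voom, and Notch1 to 0.01 in the deeper libraries and with the neural covariate. Hes1 turned to -0.67 with limma-voom and -0.43 without the 8 libraries, and Heyl to -0.03 over all 28 rats. For glucose, Jag1 turned to 0.06 with limma-voom, 0.05 with the neural covariate, 0.01 without sex and 0.01 without the 8 libraries. Hey1 turned to -0.14 with glucose as a factor, and Heyl to 0.04 and 0.15 with TPM + 1 and TPM + 0.1.

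For sex, Dll4 turned to -0.39 with the neural covariate and -0.44 without the 8 libraries. Jag1 turned to -0.10 with DESeq2 size factors, -0.08 with DESeq2, -0.15 with TPM + 1, -0.16 with TPM + 0.1 and -0.09 with the neural covariate. Without the 8 libraries Jag2 turned to -0.03 and Hes1 to 0.31. Rbpj turned to -0.13 and -0.14 with TPM + 1 and TPM + 0.1, Heyl to -0.27 with TPM + 0.1, and Hey1 to 0.27 with limma-voom.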
